A study of Mus musculus with 9 samples.

Results

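RNA of mouse embryonic stem cells labelled as CBFA2T2 knockout was set against RNA of cells labelled as PRDM14 knockout. The comparison uses the 6 knockout libraries of a series of 9, taken by their genotype labels, and covers every gene that passed a filter on low counts. The 3 CBFA2T2 knockout, 3 PRDM14-labelled and 3 wild-type libraries all come from KH2 cells, a mouse embryonic stem cell line. The cells were cultured with Lif above a feeder layer, and the feeders were taken away before RNA was extracted. The wild-type libraries lie outside the contrast and their levels are given without a test. They were in the fit, however, and helped to estimate the spread behind every p-value. The series' design text speaks of each genotype as a line with 3 biological replicates, so a genotype and the line that carries it cannot be told apart. The labels do not say whether replicates were clones, cultures or days, and p-values therefore measure only the spread between these samples.

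CBFA2T2, also called MTGR1, is a transcriptional corepressor of the MTG family, which has no DNA-binding domain of its own and is brought to DNA by partner proteins. PRDM14 is a zinc-finger protein of the PRDM family that binds DNA, and the pair are known partners in mouse embryonic stem cells and in primordial germ cells. PRDM14 is known for holding these cells in the naive state, partly by keeping FGF signalling and the de novo DNA methyltransferases low. The comparison asks in which genes RNA levels differ between the cells labelled as CBFA2T2 knockout and those labelled as PRDM14 knockout.

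Polyadenylated RNA was sequenced as strand-specific libraries and counted per gene. The 6 knockout libraries held 12636727 to 20129490 counts each, and levels are given as counts per 1e+06 (CPM) scaled by TMM factors, so 1 CPM stood for 12.6 to 20.1 counts. Values after ± are the SD of 3 libraries beside a mean and the standard error beside a log2 fold change. Each log2 fold change is the CBFA2T2 knockout over the PRDM14-labelled libraries. A gene was called where edgeR's quasi-likelihood test gave a Benjamini-Hochberg adjusted p under 0.05 over all 16532 genes tested, and p-values below are from that test unless another is named. Gene positions are those in the files, which match GRCm38.

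The targeted genes were read first. Cbfa2t2, gene ENSMUSG00000038533 at 154436481 to 154539356 on chromosome 2, measured 99.2, 44.9 and 84.8 CPM in the CBFA2T2 knockout, 173, 158 and 146 CPM in the PRDM14-labelled libraries and 166, 160 and 177 CPM in wild type. The CBFA2T2 knockout libraries were the lowest 3 and did not overlap the others, but they varied widely among themselves, replicate 2 being the lowest, and the gene was not called (log2 fold change -1.06 ± 0.25, adjusted p = 0.0975). Without CBFA2T2 knockout replicate 2 the adjusted p was 0.0081. Cbfa2t2-ps1, a processed pseudogene copy of Cbfa2t2 on chromosome 5, was called lower (-1.25 ± 0.21, adjusted p = 0.0148, or 0.0862 without CBFA2T2 knockout replicate 2). Reads of a gene and its copy may be assigned to either, so this call is uncertain. Prdm14 (ENSMUSG00000042414, chromosome 1, 13113457 to 13127163) was at 55.0, 56.3 and 67.6 CPM in the CBFA2T2 knockout, at 41.4, 42.2 and 63.5 CPM in the libraries labelled PRDM14 knockout and at 18.4, 14.6 and 15.0 CPM in wild type. The libraries labelled PRDM14 knockout thus held more Prdm14 RNA than every wild-type library, so the level of this RNA does not bear out the label. The files do not show which part of either targeted gene was altered, and a level over the whole gene does not tell whether protein was made. Neither genotype label could therefore be checked from these counts. The 2 knockouts overlapped for Prdm14 (0.28 ± 0.16, adjusted p = 0.444).

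A library stood apart on chromosome 6. In PRDM14-labelled replicate 1 the genes of chromosome 6 had a median log2 ratio of 0.446 to the other 5 knockout libraries. In those other 5 libraries the median for chromosome 6 lay between -0.108 and -0.0446, and the medians of the other autosomes and of X lay between -0.0538 and 0.0482 in all 6 libraries. Genes of chromosome 6 are pointed out below for this reason, with values without that library for those that were called.

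**Figure D1:**
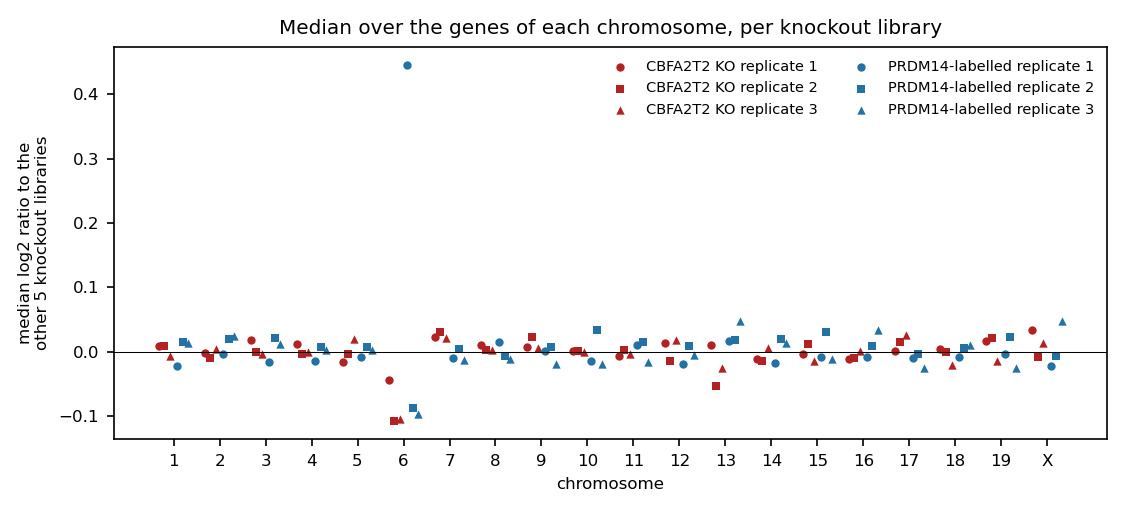
Median log2 ratio of the tested genes of each chromosome (x axis) in each of the 6 knockout libraries to the mean of the other 5 (y axis), with 1 point per library. PRDM14-labelled replicate 1 stands at 0.446 on chromosome 6, while every other point shown lies between -0.108 and 0.0482.

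Markers of stem cells and of other cell types were summed per library. The 8 embryonic stem cell markers summed to 2962, 2530 and 3113 CPM in the CBFA2T2 knockout and to 3539, 3299 and 4074 CPM in the PRDM14-labelled libraries. The sums did not overlap, and of the 8 markers Esrrb and Tdgf1 were called lower and 0 higher. Markers of feeder fibroblasts, 9 in all, summed to 462, 856 and 388 CPM in the CBFA2T2 knockout and to 370, 850 and 498 CPM in the PRDM14-labelled libraries. Replicate 2 was the highest of each group, the groups overlapped, and 0 of the 8 feeder markers tested were called. The 6 primitive endoderm markers lay between 20.4 and 32.8 CPM in the CBFA2T2 knockout and between 18.5 and 44.6 CPM in the PRDM14-labelled libraries, with 0 called.

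The knockouts differed in few genes. Of 16532 genes, 141 (0.853%) were called, 56 higher (0.339%) and 85 lower (0.514%) in the CBFA2T2 knockout. Among them 39 changed at least 2-fold, 22 higher and 17 lower. The median log2 fold change over all genes was -0.00347, and the smallest called change was 0.34 in size. The groups did not overlap in any of the 141 called genes, against 2949 (17.8%) without overlap among all tested. At an unadjusted p under 0.05 there were 2495 genes, and DESeq2 called 602. The count depended on the libraries fitted. It was 24 in a fit of the 6 knockout libraries alone, 22 of them among the 141. It was also 24 without CBFA2T2 knockout replicate 2, 34 without CBFA2T2 knockout replicate 1, 74 without PRDM14-labelled replicate 3, 242 without CBFA2T2 knockout replicate 3 and 597 without PRDM14-labelled replicate 2. Without PRDM14-labelled replicate 1 it was 194, of which 110 were among the 141.

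**Figure D2:**
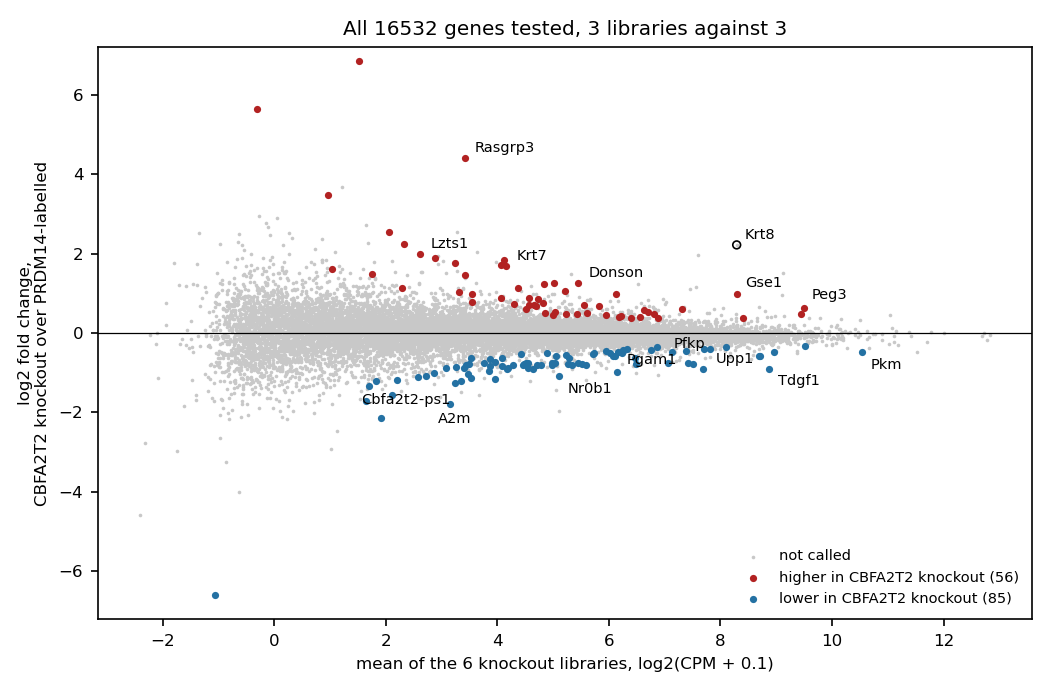
Log2 fold change of each of the 16532 genes tested, CBFA2T2 knockout over PRDM14-labelled libraries (y axis), against its mean over the 6 knockout libraries (x axis, log2 of CPM + 0.1). The 56 genes called higher are red, the 85 called lower are blue, and the open circle is Krt8, which was not called. Rasgrp3 stands at 4.40.

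Rasgrp3 had the largest change among the called genes with a mean of at least 5 CPM and a gene symbol. It encodes a nucleotide exchange factor that switches on Ras and Rap GTPases in answer to diacylglycerol. Rasgrp3 (ENSMUSG00000071042, chromosome 17, 75435905 to 75529043) was at 20.8, 22.7 and 16.9 CPM in the CBFA2T2 knockout, at 0.699, 0.607 and 1.56 CPM in the PRDM14-labelled libraries and at 0.628, 0.999 and 0.345 CPM in wild type. Only the CBFA2T2 knockout libraries were high, and the PRDM14-labelled range overlapped that of wild type. The log2 fold change was 4.40 ± 0.32 (adjusted p = 3.37e-05), and leaving out any library gave 4.16 to 4.93 with a call each time. The 250 bases before its first RefSeq start are printed for this gene because its RNA differed most. They lie at chr17:75435655-75435904 of GRCm38.p6 on the plus strand, and the sequence is from RefSeq. Capitals mark CANNTG, the E box, which is read by the basic helix-loop-helix proteins that MTG corepressors are known to partner.
Rasgrp3: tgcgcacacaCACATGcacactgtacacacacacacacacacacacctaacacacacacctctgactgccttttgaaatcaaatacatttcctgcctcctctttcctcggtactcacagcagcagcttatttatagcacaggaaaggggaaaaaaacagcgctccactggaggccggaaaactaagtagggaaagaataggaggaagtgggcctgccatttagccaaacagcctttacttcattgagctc
The motif reads the same on both strands and was found 1 time there. Of all 32851 RefSeq promoters of that length 66.2% hold it and of those of tested genes 57.9%, as do 54.5% of the 44 promoters of genes called higher and 69.5% of the 59 of genes called lower.

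Of the 12 largest called rises with a mean of at least 5 CPM, no overlap between the knockouts and a gene name other than that of a gene model or clone, Lzts1, Fam43b and Slc5a5 followed. Lzts1, which encodes a leucine-zipper protein with tumour suppressor activity, was at 10.7, 8.49 and 9.62 CPM in the CBFA2T2 knockout, against 2.51, 2.61 and 2.13 CPM in the PRDM14-labelled libraries and 0.685 to 0.76 CPM in wild type. The 3 groups stood clear of each other, in that order (1.99 ± 0.21, adjusted p = 0.00091). Fam43b averaged 14.4 ± 0.73 CPM in the CBFA2T2 knockout and 4.23 ± 1.85 CPM in the PRDM14-labelled libraries (1.77 ± 0.28, adjusted p = 0.0127). It overlaps AB041806. Slc5a5, the sodium-iodide symporter, averaged 25.6 ± 7.0 CPM in the CBFA2T2 knockout and 7.81 ± 2.37 CPM in the PRDM14-labelled libraries (1.72 ± 0.24, adjusted p = 0.00754). In wild type it lay between them, at 11.8 to 12.7 CPM.

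Iron export, growth factor and replication genes were also among these rises. Slc40a1, which encodes the iron exporter ferroportin, was at 15.7, 18.1 and 13.1 CPM in the CBFA2T2 knockout and at 4.6, 8.32 and 4.0 CPM in the PRDM14-labelled libraries (1.47 ± 0.24). Gas6, the secreted ligand of the TAM receptor kinases, was at 35.0, 52.5 and 32.4 CPM in the CBFA2T2 knockout and at 15.6, 21.9 and 13.4 CPM in the PRDM14-labelled libraries (1.24 ± 0.23). Replicate 2 was the highest of each group in 6 of the 12 rises, Slc40a1, Gas6, Gprc5c, Chst15, Pknox2 and Endod1, as it was for the feeder markers. How often this held over all genes was not counted, and the part of the feeder markers in these rises was not tested. Donson, a factor of DNA replication origins and forks, was at 55.1, 56.4 and 72.6 CPM in the CBFA2T2 knockout and at 26.2, 26.8 and 23.9 CPM in the PRDM14-labelled libraries (1.26 ± 0.12, adjusted p = 0.000237). Wild type, at 25.3 to 28.0 CPM, overlapped the PRDM14-labelled libraries. Donson overlaps Atp5o and Son, and the counting strand is not given, so reads of the neighbours could fall in its count. The other rises of the 12 were Krt7 (1.69), Gprc5c (1.26), an orphan G protein-coupled receptor, Chst15 (1.14), a chondroitin sulphotransferase that overlaps Fgfr2, Pknox2 (1.02), a TALE homeodomain factor, and Endod1 (0.99). Of the 12, Rasgrp3, Lzts1, Donson and Slc5a5 kept their call whichever knockout library was left out. Slc5a5 lost it in the fit of the 6 knockout libraries alone (adjusted p = 0.0667). Gas6 and Endod1 lost it with PRDM14-labelled replicate 1 left out (adjusted p = 0.085 and 0.064). Without CBFA2T2 knockout replicate 2, 8 genes lost it at adjusted p of 0.0518 to 0.2: Fam43b, Krt7, Slc40a1, Gprc5c, Gas6, Chst15, Pknox2 and Endod1. All of these but Chst15 also lost it without CBFA2T2 knockout replicate 1 (0.0673 to 0.142), and Gprc5c, Gas6, Pknox2 and Endod1 without PRDM14-labelled replicate 3 (0.0747 to 0.109).

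**Figure D3:**
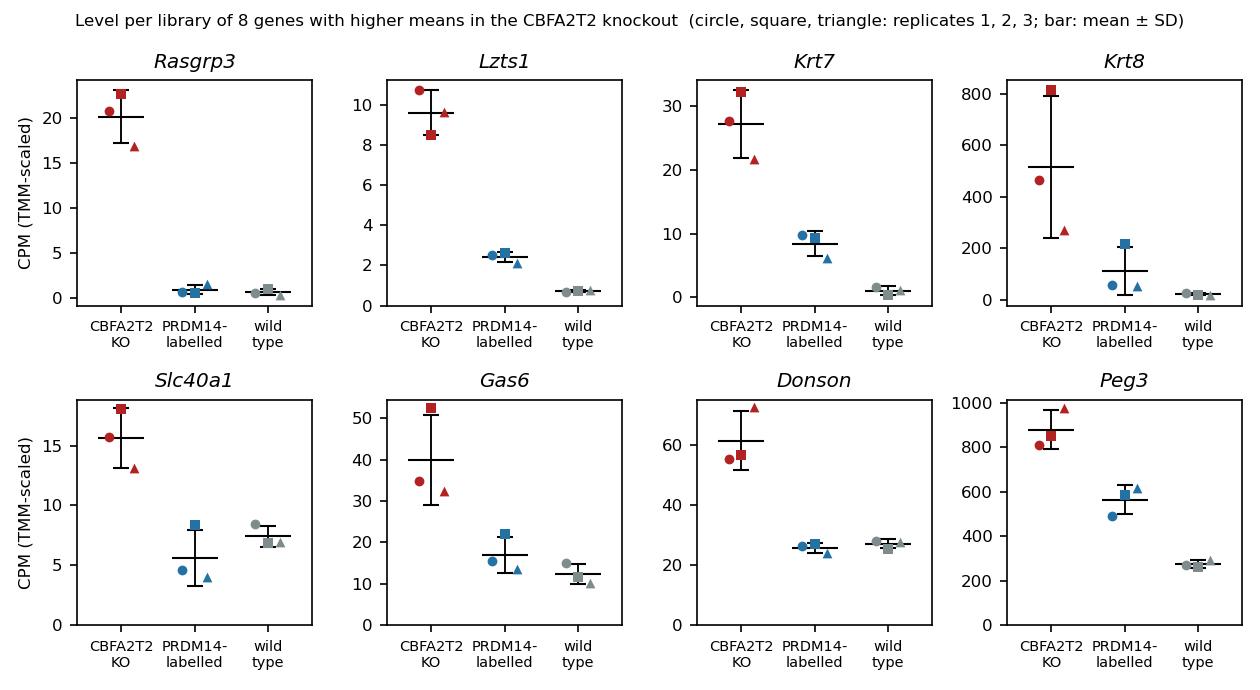
CPM (y axis of each panel) in the 3 libraries each of the CBFA2T2 knockout, the PRDM14-labelled group and wild type (x axis) for 8 genes, 7 of them called higher and Krt8 not called. Symbols are replicates, bars the mean ± SD. Rasgrp3 stands at 16.9 to 22.7 CPM in the CBFA2T2 knockout and at 1.56 CPM or less in every other library.

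Naive pluripotency genes, which mark the ground state of mouse embryonic stem cells, were the list with the most calls. Of 24 measured members 8 (33.3%) fell and none rose, 16 being uncalled, against 0.514% of all genes called lower. This list and those below were drawn up with results of these data known. All 24 had a negative log2 fold change, with a median of -0.388 against -0.00347 over all genes. With any 1 knockout library left out, 22 or 23 of the 24 values were negative. In bulk RNA, fewer cells of a kind and less RNA per cell cannot be told apart. Nr0b1, an orphan nuclear receptor also called DAX1, was at 24.5, 21.6 and 19.9 CPM in the CBFA2T2 knockout, at 56.2, 39.6 and 45.1 CPM in the PRDM14-labelled libraries and at 107 to 125 CPM in wild type. Every CBFA2T2 knockout library was under every PRDM14-labelled one, and those were under wild type (-1.09 ± 0.13, adjusted p = 0.0018). Fgf4, the growth factor by which these cells stimulate their own ERK pathway, was at 146, 140 and 115 CPM in the CBFA2T2 knockout, against 247, 214 and 234 CPM in the PRDM14-labelled libraries and 289 to 328 CPM in wild type (-0.79 ± 0.10, adjusted p = 0.00214). Nr5a2, a nuclear receptor that binds Pou5f1 regulatory DNA, was at 26.6, 31.1 and 27.9 CPM in the CBFA2T2 knockout and at 53.2, 49.8 and 42.9 CPM in the PRDM14-labelled libraries (-0.77 ± 0.11, adjusted p = 0.00631). Here the PRDM14-labelled libraries lay in the range of wild type, at 49.2 to 54.8 CPM, apart from replicate 3.

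The called members Tfcp2l1, Tbx3 and Dppa3 had higher means in the PRDM14-labelled libraries than in wild type. Tfcp2l1, a transcription factor downstream of LIF, averaged 338 ± 29.1 CPM in the CBFA2T2 knockout and 503 ± 13.6 CPM in the PRDM14-labelled libraries, with 192 CPM in wild type (-0.57 ± 0.08, adjusted p = 0.00754). Tbx3, a T-box factor that overlaps Tbx3os1, averaged 54.8 ± 5.32 and 82.4 ± 5.28 CPM in the same order, with 64.9 CPM in wild type (-0.58 ± 0.09, adjusted p = 0.0103). Dppa3, also called Stella, was at 17.1, 15.6 and 16.3 CPM in the CBFA2T2 knockout, at 33.2, 24.2 and 27.4 CPM in the PRDM14-labelled libraries and at 7.87 to 9.77 CPM in wild type (-0.79 ± 0.14, adjusted p = 0.0215). It lies on chromosome 6, and without PRDM14-labelled replicate 1 it was at -0.66 with an adjusted p of 0.0365. Its call was lost without CBFA2T2 knockout replicate 1 or 2 (adjusted p = 0.0775 and 0.122). For these 3 genes the CBFA2T2 knockout mean lay between wild type and the PRDM14-labelled mean or, for Tbx3, under both. Esrrb (-0.48), the orphan receptor at the centre of the naive network, and Spp1 (-0.59), which encodes osteopontin, were also called, each at an adjusted p of 0.0238. Gbx2 (-1.10 ± 0.31, adjusted p = 0.126), Tcl1 (-0.89 ± 0.23, adjusted p = 0.097) and Zfp42 (-0.45 ± 0.10, adjusted p = 0.0606) were not called, although their groups did not overlap. Without CBFA2T2 knockout replicate 2 the list had 5 falls, and without PRDM14-labelled replicate 2 it had 12, while with PRDM14-labelled replicate 1 left out it had 8 again. In the fit of the 6 knockout libraries alone it had 4, and Dppa3 was not called there (adjusted p = 0.0764).

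The core factors of pluripotency were not called. Pou5f1, which encodes OCT4, averaged 379 ± 36.0 CPM in the CBFA2T2 knockout and 434 ± 24.3 CPM in the PRDM14-labelled libraries (-0.20 ± 0.08, adjusted p = 0.244). Sox2 (-0.29, adjusted p = 0.17), Nanog on chromosome 6 (-0.29, adjusted p = 0.215) and Klf4 (-0.20, adjusted p = 0.524) overlapped between the groups as well. With PRDM14-labelled replicate 2 left out Nanog was called (adjusted p = 0.0288), and with CBFA2T2 knockout replicate 3 left out Sox2 was (adjusted p = 0.0297). Among 19 general pluripotency genes there was 1 fall and no rise, and the median was -0.198. The fall was Tdgf1, or Cripto, a co-receptor of Nodal. Tdgf1 was at 332, 286 and 367 CPM in the CBFA2T2 knockout, at 703, 475 and 660 CPM in the PRDM14-labelled libraries and at 888 to 896 CPM in wild type (-0.90 ± 0.13, adjusted p = 0.0123). Its call was lost without CBFA2T2 knockout replicate 1 or 2 or PRDM14-labelled replicate 3, at adjusted p of 0.0518 to 0.0757. The list had 3 falls without CBFA2T2 knockout replicate 3 or PRDM14-labelled replicate 2. With the 6 knockout libraries fitted alone it had 0, and Tdgf1 was at an adjusted p of 0.0783.

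**Figure D4:**
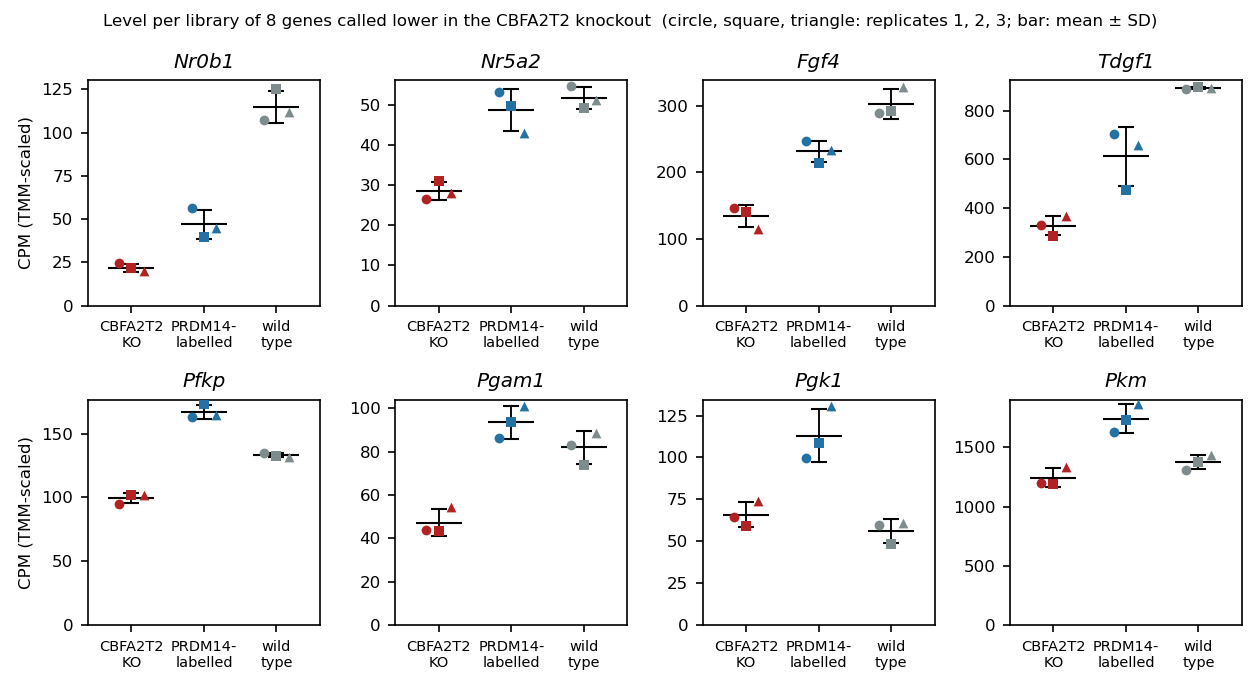
CPM (y axis of each panel) in the 3 libraries each of the CBFA2T2 knockout, the PRDM14-labelled group and wild type (x axis) for 4 pluripotency-related and 4 glycolytic genes, all called lower in the CBFA2T2 knockout. Symbols are replicates, bars the mean ± SD. In each panel the 3 CBFA2T2 knockout libraries lie under the 3 PRDM14-labelled ones.

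Glycolysis was the other list in which every member pointed one way. Among 25 genes of glycolysis and the hypoxia response 4 (16%) fell and none rose, leaving 21 uncalled, against 0.514% of all genes called lower. All 25 had negative log2 fold changes with a median of -0.300. The list summed to 10750, 11092.8 and 11312.2 CPM in the CBFA2T2 knockout and to 16517.3, 13154.1 and 13032.1 CPM in the PRDM14-labelled libraries. These 2 groups did not overlap, and PRDM14-labelled replicate 1 was the highest. Wild type summed to 9749.4, 9398.5 and 9478.4 CPM, so by this sum both knockouts stood above wild type. Pfkp, the platelet-type phosphofructokinase, was at 95, 102 and 102 CPM in the CBFA2T2 knockout, at 163, 173 and 164 CPM in the PRDM14-labelled libraries and at 132 to 135 CPM in wild type. Wild type lay between the knockouts, with little spread in any group (-0.74 ± 0.07, adjusted p = 0.000237). Pfkp overlaps Pitrm1. Pgam1, phosphoglycerate mutase, was at 43.7, 43.4 and 54.4 CPM in the CBFA2T2 knockout and at 86.1, 93.5 and 101 CPM in the PRDM14-labelled libraries, with wild type at 73.9 to 88.7 CPM (-0.99 ± 0.11, adjusted p = 0.00091). Its processed copies Pgam1-ps1 (-0.24, adjusted p = 0.161) and Pgam1-ps2 (-0.19, adjusted p = 0.193) were not called, and reads may be split among them.

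The remaining glycolytic calls were Pgk1 and Pkm. Pgk1, phosphoglycerate kinase, averaged 65.8 ± 7.36 CPM in the CBFA2T2 knockout and 113 ± 15.7 CPM in the PRDM14-labelled libraries (-0.78 ± 0.12, adjusted p = 0.0113). Its level is uncertain, because the processed copy Pgk1-rs7 held more counts than the gene (423 to 453 CPM in the CBFA2T2 knockout and 526 to 534 CPM in the PRDM14-labelled libraries) and was itself not called (-0.29, adjusted p = 0.0643). Pkm, pyruvate kinase, averaged 1244 ± 82.1 CPM in the CBFA2T2 knockout and 1744 ± 121 CPM in the PRDM14-labelled libraries (-0.49 ± 0.07, adjusted p = 0.0103). Wild type, at 1312 to 1435 CPM, overlapped the CBFA2T2 knockout and lay under the PRDM14-labelled libraries. Pkm lost its call without CBFA2T2 knockout replicate 1 or 2 (adjusted p = 0.0658 and 0.0611). Ldha (-0.30, adjusted p = 0.0605), Tpi1 (-0.44, adjusted p = 0.0643) and Egln3 (-0.48, adjusted p = 0.0652) were not called. Tpi1, Hk2 and Slc2a3 lie on chromosome 6. Without CBFA2T2 knockout replicate 1 or 2 the list had 2 falls, Pfkp and Pgam1, so Pgk1 was not called there either. It had 6 falls without CBFA2T2 knockout replicate 3, 7 without PRDM14-labelled replicate 2 and 4 without PRDM14-labelled replicate 1, where 22 of 25 values were negative and the median was -0.282. A fit of the 6 knockout libraries alone gave 3 falls, with Pkm not called (adjusted p = 0.0709).

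Promoters of the 4 called glycolytic genes are shown because these genes fell together. Each is the 250 bases before the RefSeq start in GRCm38.p6, written along the gene's strand. Capitals mark ACGTG or its reverse complement CACGT, the core of the element read by hypoxia-inducible factors, which also lies within CACGTG boxes of other factors. Pgam1 is at chr19:41911621-41911870 (plus), Pgk1 at chrX:106186850-106187099 (plus), Pfkp at chr13:6648772-6649021 (minus) and Pkm at chr9:59656326-59656575 (plus).
Pgam1: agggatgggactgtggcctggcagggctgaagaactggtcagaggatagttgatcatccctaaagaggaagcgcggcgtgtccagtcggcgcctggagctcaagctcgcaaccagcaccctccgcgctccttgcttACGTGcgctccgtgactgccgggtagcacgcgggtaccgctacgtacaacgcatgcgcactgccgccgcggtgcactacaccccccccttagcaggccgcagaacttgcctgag
Pgk1: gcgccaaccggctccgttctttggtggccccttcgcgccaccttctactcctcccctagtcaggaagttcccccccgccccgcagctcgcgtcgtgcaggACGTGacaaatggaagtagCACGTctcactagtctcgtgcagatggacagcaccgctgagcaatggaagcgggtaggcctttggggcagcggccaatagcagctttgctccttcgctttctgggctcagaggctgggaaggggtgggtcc
Pfkp: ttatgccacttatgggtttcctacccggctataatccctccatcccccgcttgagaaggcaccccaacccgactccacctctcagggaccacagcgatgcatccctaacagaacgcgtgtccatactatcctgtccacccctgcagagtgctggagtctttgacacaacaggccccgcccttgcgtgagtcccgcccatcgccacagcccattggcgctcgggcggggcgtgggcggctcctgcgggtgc
Pkm: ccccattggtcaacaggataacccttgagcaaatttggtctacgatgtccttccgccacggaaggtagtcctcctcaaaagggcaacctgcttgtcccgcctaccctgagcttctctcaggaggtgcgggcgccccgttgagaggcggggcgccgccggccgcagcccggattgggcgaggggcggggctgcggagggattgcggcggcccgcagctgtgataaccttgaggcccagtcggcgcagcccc
Pgam1 held 1 match and Pgk1 held 2, and Pfkp and Pkm held 0, which says only that these letters are not in those windows. Over the list, 23 genes matched RefSeq with 33 promoters, of which 15 (45.5%) held the motif. It was in 16.6% of all promoters and in 21.1% of the promoters of tested genes. Of the called genes that matched, 16 of 59 promoters of genes called lower (27.1%) and 1 of 44 of genes called higher (2.27%) held it. These shares describe letters in windows and no binding was measured. The list was chosen for glycolysis and the hypoxia response, so its own share is no result of these data.

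Other metabolic and housekeeping lists showed few calls. Of 23 genes of the integrated stress response, which raises amino acid supply genes when translation is checked, 1 fell and none rose, with 18 negative values and a median of -0.232. Aars, alanyl-tRNA synthetase, averaged 644 ± 50.9 CPM in the CBFA2T2 knockout and 814 ± 35.2 CPM in the PRDM14-labelled libraries (-0.34 ± 0.07, adjusted p = 0.0454). That call was lost without any of 5 of the knockout libraries, at adjusted p of 0.0599 to 0.208. It was also lost in the fit of the 6 knockout libraries alone (0.166). Upp1, uridine phosphorylase and 1 of the 12 largest named falls, was at 148, 147 and 136 CPM in the CBFA2T2 knockout and at 317, 209 and 284 CPM in the PRDM14-labelled libraries (-0.91 ± 0.12, adjusted p = 0.00647). The list of cholesterol synthesis had 0 calls among 23 and a median of 0.0766. Cell cycle genes had 0 calls among 27 and a median of -0.0988, with Top2a lowest in p (-0.25, adjusted p = 0.116). Of 20 p53 targets 0 were called, the median was 0.0346, and Sesn2 was lowest in p (-0.20, adjusted p = 0.193).

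Germline genes had 2 falls (8.33%, against 0.514% of all genes), 0 rises and 22 uncalled members of 24 tested. The median was -0.46, with 18 negative values. Kit, the receptor of stem cell factor on which germ cell precursors depend, was at 63.3, 66.8 and 78.5 CPM in the CBFA2T2 knockout, at 116, 99.7 and 107 CPM in the PRDM14-labelled libraries and at 68.8 to 71.2 CPM in wild type. Only the PRDM14-labelled libraries stood away from wild type (-0.64 ± 0.09, adjusted p = 0.00754). Without CBFA2T2 knockout replicate 2 its adjusted p was 0.0518. With the 6 knockout libraries fitted alone it was 0.0667, and the list had 0 falls. The list had 0 to 5 falls with 1 knockout library left out, 0 of them without CBFA2T2 knockout replicate 2 and 5 without PRDM14-labelled replicate 2. The other fall was Dppa3, given above. Ddx4, the RNA helicase known as Vasa, averaged 26.1 ± 3.75 CPM in the CBFA2T2 knockout and 39.4 ± 7.49 CPM in the PRDM14-labelled libraries and was not called (-0.60 ± 0.14, adjusted p = 0.0611). The germ cell specification factors Prdm1 (0.14, adjusted p = 0.831) and Tfap2c (0.06, adjusted p = 0.837) were not called, with overlapping groups.

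FGF signalling genes were called in both directions. Among 22 targets and feedback genes there were 2 falls and 1 rise (13.6% called, against 0.853% of all genes), and the median was 0.00853. Etv5, an ETS factor induced by FGF, was at 136, 140 and 107 CPM in the CBFA2T2 knockout, at 261, 183 and 204 CPM in the PRDM14-labelled libraries and at 397 to 421 CPM in wild type (-0.76 ± 0.13, adjusted p = 0.0242). Fgf4, given above, was the other fall. Phlda1, a pleckstrin-homology-like protein induced by ERK signalling, was the rise, with a mean of 30.7 ± 4.25 CPM in the CBFA2T2 knockout and 16.6 ± 3.28 CPM in the PRDM14-labelled libraries (0.89 ± 0.18, adjusted p = 0.0451), and it too was highest in replicate 2 of each group. Etv4 was at 4.29, 3.02 and 4.19 CPM in the CBFA2T2 knockout, against 25.9, 4.80 and 4.06 CPM in the PRDM14-labelled libraries and 180 to 203 CPM in wild type. Among the knockouts PRDM14-labelled replicate 1 alone was high, the groups overlapped, and Etv4 was not called (-1.62 ± 0.78, adjusted p = 0.402). Etv5 lost its call without CBFA2T2 knockout replicate 1 or 2 or PRDM14-labelled replicate 3 (adjusted p = 0.0901, 0.0544 and 0.0658). Phlda1 lost its call without any of those 3 or PRDM14-labelled replicate 1, at adjusted p of 0.0776 to 0.201. Fitted on the 6 knockout libraries alone, the list had 1 call, Fgf4, with Etv5 at an adjusted p of 0.107 and Phlda1 at 0.082.

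The DNA methylation list had no call and the formative list a single one. Dnmt3b, the de novo DNA methyltransferase that PRDM14 is known to hold down, was at 216, 205 and 187 CPM in the CBFA2T2 knockout, at 245, 190 and 210 CPM in the PRDM14-labelled libraries and at 519 to 586 CPM in wild type. The knockouts overlapped (-0.08 ± 0.09, adjusted p = 0.733), and both were under wild type. Of 15 DNA methylation genes 0 were called, with Tet3 on chromosome 6 lowest in p (0.54, adjusted p = 0.0702). Tet3 was called higher without PRDM14-labelled replicate 1 (adjusted p = 0.0087). Without PRDM14-labelled replicate 2 the list had 3 falls and 0 rises. Of 22 formative and primed genes 1, Etv5, fell and 21 were not called, with a median of -0.056.

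Simple epithelial keratins, which trophectoderm and other simple epithelia share, had higher means in the CBFA2T2 knockout, but of them only Krt7 was called. Krt7 was at 27.7, 32.2 and 21.7 CPM in the CBFA2T2 knockout, at 9.79, 9.29 and 6.19 CPM in the PRDM14-labelled libraries and at 0.3 to 1.6 CPM in wild type. The 3 groups stood clear of each other (1.69 ± 0.26, adjusted p = 0.0152). Krt8 was at 464, 813 and 269 CPM in the CBFA2T2 knockout and at 59.4, 218 and 55.5 CPM in the PRDM14-labelled libraries, with 19 to 27.4 CPM in wild type. Its groups did not overlap, but replicate 2 was far above the others in both, and it was not called (2.22 ± 0.68, adjusted p = 0.201). Krt18, the partner of Krt8 in filaments, was likewise highest in replicate 2 of each group (1.96 ± 0.56, adjusted p = 0.177). Replicate 2 was also the highest in feeder markers in both groups, at 856 CPM in the CBFA2T2 knockout and 850 CPM in the PRDM14-labelled libraries, and their part in the keratin values was not tested. Without PRDM14-labelled replicate 2, Krt8 was at 3.17 and called (adjusted p = 0.0444). Krt7 lost its call without CBFA2T2 knockout replicate 1 or 2 (adjusted p = 0.0806 and 0.0771).

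Trophectoderm genes ranged widely in level. Of 22 tested members 1, Krt7, rose, 0 fell and 21 were not called, with 19 positive values and a median of 0.624. There were 3 rises without PRDM14-labelled replicate 1 or 2 and 0 without CBFA2T2 knockout replicate 1 or 2. The list was dominated by Peg10, a retrotransposon-derived gene of the placenta that is imprinted and lies on chromosome 6. Peg10 was at 2509, 2763 and 2029 CPM in the CBFA2T2 knockout and at 2754, 1294 and 1250 CPM in the PRDM14-labelled libraries, where replicate 1 stood apart and made the groups overlap (0.46 ± 0.32, adjusted p = 0.563). The 7 trophectoderm markers summed to 788, 1326 and 476 CPM in the CBFA2T2 knockout and to 128, 379 and 124 CPM in the PRDM14-labelled libraries, most of it Krt8 and Krt18. Elf5, a defining trophoblast factor, was at 0.0565, 0.048 and 0 CPM in the CBFA2T2 knockout and at 0 in the PRDM14-labelled libraries, and was too low to test. Cdx2, the factor that starts the trophectoderm programme, averaged 2.45 ± 1.16 CPM in the CBFA2T2 knockout and 1.24 ± 0.48 CPM in the PRDM14-labelled libraries, and Eomes averaged 5.31 ± 0.98 and 7.32 ± 1.46 CPM in the same order. Neither was called. Simple epithelium as a list of 23 had 1 rise, the same Krt7, and a median of 0.33. Without PRDM14-labelled replicate 2 it had 8 rises and a median of 0.51, without CBFA2T2 knockout replicate 1 or 2 it had 0 rises, and without PRDM14-labelled replicate 1 the median was 0.179. Claudin 4 (Cldn4), a tight junction protein, averaged 549 ± 69.3 CPM in the CBFA2T2 knockout and 416 ± 29.2 CPM in the PRDM14-labelled libraries (0.40 ± 0.10, adjusted p = 0.0679).

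Interferon, actin and mesoderm genes had mostly positive values and hardly any call. Among 19 interferon response genes there was 1 rise and no fall, with 17 positive values and a median of 0.477. Irf1, an interferon-induced transcription factor, was at 41.2, 42.2 and 47.2 CPM in the CBFA2T2 knockout and at 32.8, 28.2 and 32.8 CPM in the PRDM14-labelled libraries (0.48 ± 0.10, adjusted p = 0.047). It lost its call when any 1 of 5 knockout libraries was left out, at adjusted p of 0.0552 to 0.159, but not without PRDM14-labelled replicate 1. Its adjusted p was 0.145 in the fit of the 6 knockout libraries alone. Without PRDM14-labelled replicate 2 the list had 3 rises. Of 24 actin cytoskeleton and SRF target genes 0 were called, with 23 positive values and a median of 0.361, which was 0.177 without CBFA2T2 knockout replicate 2 and 0.564 with 5 rises without PRDM14-labelled replicate 2. Tpm1, a tropomyosin, was at 681, 953 and 558 CPM in the CBFA2T2 knockout and at 302, 524 and 300 CPM in the PRDM14-labelled libraries (0.96 ± 0.26, adjusted p = 0.146). Tagln, or SM22, a gene overlapping Pcsk7, was at 255, 333 and 127 CPM in the CBFA2T2 knockout and at 64.2, 193 and 77.4 CPM in the PRDM14-labelled libraries (1.10 ± 0.53, adjusted p = 0.402). Replicate 2 of each group again held the highest value of both genes. Of 18 mesoderm and primitive streak genes 0 were called, with a median of 0.554. Snai1, a repressor of E-cadherin, averaged 13.3 ± 0.32 CPM in the CBFA2T2 knockout and 6.92 ± 2.16 CPM in the PRDM14-labelled libraries (0.94 ± 0.21, adjusted p = 0.0532), and T, or Brachyury, 6.6 ± 1.25 and 1.88 ± 0.95 CPM in the same order (1.81 ± 0.43, adjusted p = 0.0676). DESeq2 called both.

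Imprinted genes, expressed from the copy of 1 parent, had a call in each direction. Among 24 tested there were 1 rise and 1 fall, and the median was 0.135. Peg3, a paternally expressed zinc-finger gene, was at 808, 849 and 978 CPM in the CBFA2T2 knockout, at 490, 584 and 616 CPM in the PRDM14-labelled libraries and at 259 to 293 CPM in wild type. The 3 groups stood clear of each other (0.64 ± 0.10, adjusted p = 0.00822). Grb10, an adaptor that damps insulin signalling, averaged 69.6 ± 7.0 CPM in the CBFA2T2 knockout, 91.3 ± 4.56 CPM in the PRDM14-labelled libraries and 258 CPM in wild type (-0.39 ± 0.08, adjusted p = 0.047). The call of Grb10 was lost without CBFA2T2 knockout replicate 1 or 2 or PRDM14-labelled replicate 1 or 3, at adjusted p of 0.0561 to 0.237. Neither Peg3 nor Grb10 was called in the fit of the 6 knockout libraries alone (adjusted p = 0.0648 and 0.166). H19, a maternally expressed long non-coding RNA, was at 1117, 897 and 462 CPM in the CBFA2T2 knockout and at 307, 328 and 227 CPM in the PRDM14-labelled libraries, and was not called (1.52 ± 0.35, adjusted p = 0.106).

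The other lists had 0 calls, and the member with the lowest p is named for most. The exception was Nodal and TGF-beta signalling with 17 genes, where Tdgf1 was the single fall and the median was 0.115. Among 22 genes of the MTG corepressor complex, the partners of CBFA2T2, the median was 0.0067, and Sin3b was lowest in p (0.21 ± 0.07, adjusted p = 0.173). The related Cbfa2t3 averaged 0.84 ± 0.07 CPM in the CBFA2T2 knockout and 1.57 ± 0.24 CPM in the PRDM14-labelled libraries, and Runx1t1 3.54 ± 0.63 and 4.93 ± 2.39 CPM in the same order, neither called. The PRDM family list had 10 tested members and a median of 0.0232, and polycomb (25, median -0.0872) was led by Phc1 on chromosome 6 (-0.54, adjusted p = 0.0569). WNT targets (19, median 0.268) were led by T, BMP and ID genes (18, median 0.255) by Id1 (0.76, adjusted p = 0.0646), and LIF and STAT3 genes (16, median -0.00117) by Socs2 (-0.36, adjusted p = 0.0643). Primitive endoderm (21, median -0.0934) was led by Lrp2 (0.59, adjusted p = 0.0947), neural ectoderm (12, median 0.0836) by Ncam1 (-0.42, adjusted p = 0.0883) and retinoic acid genes (15, median -0.0451) by Crabp1 (-0.44, adjusted p = 0.148). Hox clusters (10, median -0.0893) were led by Halr1 on chromosome 6 (-1.68, adjusted p = 0.216, and -0.58 without PRDM14-labelled replicate 1), S100 proteins (8, median 0.0261) by S100a11 (0.48, adjusted p = 0.0971), feeder fibroblast genes (23, median -0.0195) by Twist2 (1.46, adjusted p = 0.273) and 2-cell-like state genes (10, median -0.15) by Gm8300 (-0.76, adjusted p = 0.475, and -0.14 without PRDM14-labelled replicate 3). In 13 of the 31 lists the sign of the median turned when 1 knockout library was left out, most of them with a median near 0. The median of primitive endoderm was 0.312, with 19 of 21 values positive, without PRDM14-labelled replicate 1, and it was also positive without CBFA2T2 knockout replicate 2 or 3. That of the 2-cell-like genes was 1.21 without PRDM14-labelled replicate 3 and -0.609 without PRDM14-labelled replicate 1. That of the feeder genes ran between -0.39 and 0.27. Over all 31 lists 551 genes were tested and 21 (3.81%) were called, 4 higher and 17 lower, against 0.853% of all genes, and 19 lists had no call by edgeR. Of the 328 genes in those 19 lists, 71 had an unadjusted p under 0.05, DESeq2 called 18 and limma-voom called 3. Mesoderm and primitive streak had 9 of 18 under that p and 2 called by DESeq2, actin and SRF targets 8 of 24 and 1, LIF and STAT3 genes 7 of 16 and 4, and DNA methylation genes 7 of 15 and 2. The lists were drawn up for this tissue and with results of these data known, so their share is a description.

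**Figure D5:**
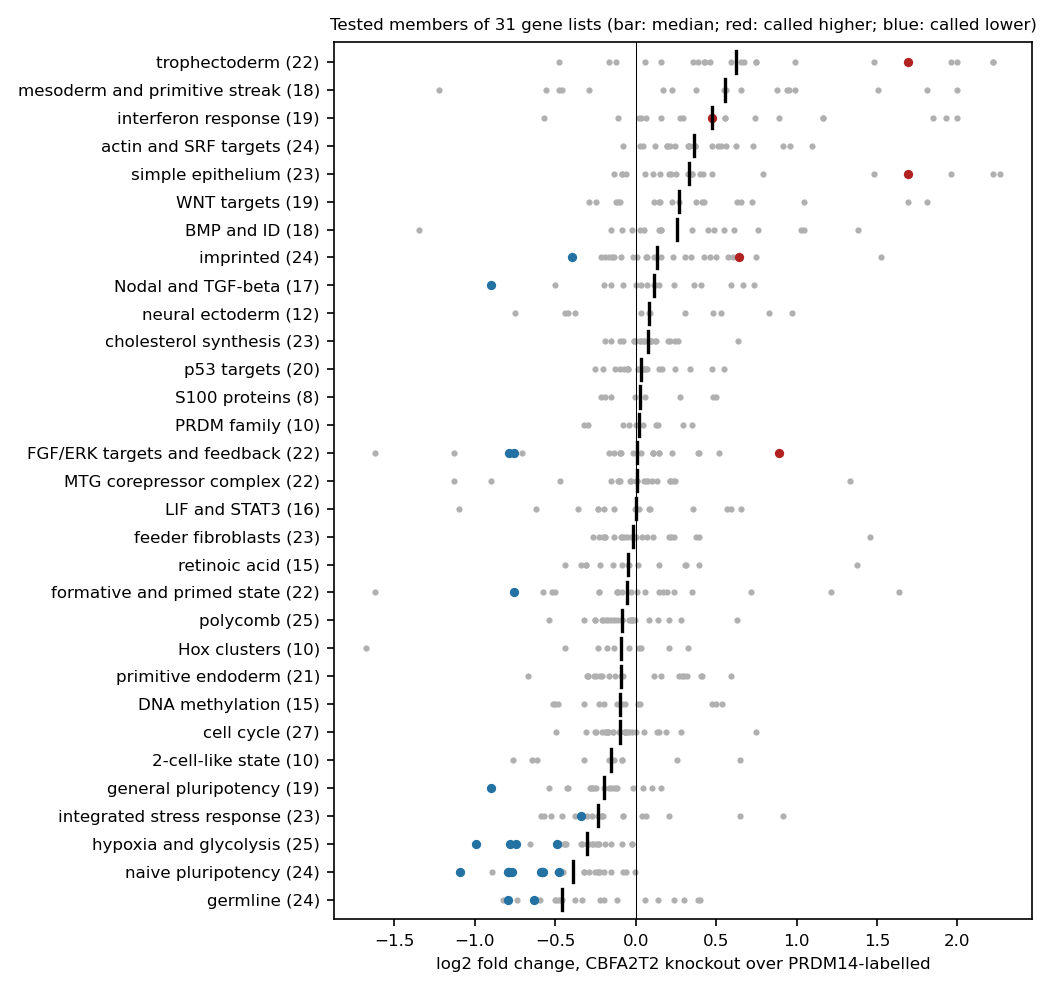
Log2 fold change, CBFA2T2 knockout over PRDM14-labelled libraries (x axis), of each tested member of the 31 lists (rows, number tested in brackets, sorted by median). Bars are medians, red members were called higher and blue ones lower. All 24 naive pluripotency genes (median -0.388) and all 25 glycolysis and hypoxia genes (median -0.300) lie below 0.

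The largest falls outside these lists included A2m and several pseudogenes. A2m, which encodes the protease inhibitor alpha-2-macroglobulin, was at 2.49, 5.42 and 3.88 CPM in the CBFA2T2 knockout and at 16.1, 9.60 and 15.3 CPM in the PRDM14-labelled libraries (-1.78 ± 0.27, adjusted p = 0.0113). It lies on chromosome 6 and was at -1.65 without PRDM14-labelled replicate 1, still called (adjusted p = 0.017). Coro2b, a coronin that binds actin, averaged 4.77 ± 1.05 CPM in the CBFA2T2 knockout, 9.51 ± 2.56 CPM in the PRDM14-labelled libraries and 40.9 CPM in wild type (-1.02 ± 0.20, adjusted p = 0.0356), and was not called when PRDM14-labelled replicate 1 (adjusted p = 0.0582) or CBFA2T2 knockout replicate 1 or 2 (0.163 and 0.181) was left out. Tuba3a, an alpha-tubulin on chromosome 6 with a near-identical paralog, was at -0.88 with an adjusted p of 0.0318, and 0.052 without PRDM14-labelled replicate 1. Of the 754 genes tested on chromosome 6, 7 (0.928%) were called, against 0.853% of all genes tested. The 7 were all lower, and the median log2 fold change on chromosome 6 was -0.154. Named here after their values were seen, they were A2m, Dppa3, Tuba3a, Prmt8, Hnrnpf, Bcat1 and the pseudogene Rpl18-ps2. Bcat1 (-0.32, adjusted p = 0.0634) and Tuba3a were not called without PRDM14-labelled replicate 1. Prmt8 (-1.38, adjusted p = 0.0409), Hnrnpf (-0.48, adjusted p = 0.045) and Rpl18-ps2 (-0.72, adjusted p = 0.0171) were still called there.

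Pseudogenes made up 34 of the 85 falls. Of 2315 tested, 34 (1.47%) fell and 6 (0.259%) rose, whereas of 13706 protein-coding genes 49 (0.358%) fell and 49 rose. Rps6-ps2 (-1.21), Rpl27-ps3 (-1.12), Rpl23a-ps3 (-0.94) and Rps6-ps1 (-0.91) were among the 12 largest named falls. Of 157 ribosomal protein pseudogenes recognised by symbol 10 fell and 0 rose, and of 79 ribosomal protein genes, their source genes, 0 were called by edgeR, with a median of -0.0956, while 23 had an unadjusted p under 0.05 and DESeq2 called 11. Ribosomal protein genes summed to 25110, 22300 and 23620 CPM in the CBFA2T2 knockout and to 22870, 24350 and 28190 CPM in the PRDM14-labelled libraries, where replicate 3 was the highest of the 6. All 4 pseudogenes named lost their call without CBFA2T2 knockout replicate 1 (adjusted p = 0.133 to 0.146), CBFA2T2 knockout replicate 2 (0.123 to 0.16) or PRDM14-labelled replicate 3 (0.0747 to 0.0951). Such copies can take reads of their source genes, so these calls are uncertain.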

How the data were processed

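Polyadenylated RNA of 9 libraries was sequenced. Each deposited file holds the whole-number counts of 1 library over Ensembl genes, not normalized by the authors. The aligner was Bowtie (version not given) and the genome mm9, per the submitters' processing notes, yet the gene positions in the files match GRCm38: GENCODE M21 holds 32860 of the IDs, each on the chromosome the files give, and for 25661 (78.1%) start and end are equal. For counter, strand setting and annotation the answer is: not given in the sources used here. Hence overlapping genes and near-identical copies are reported as uncertain. Symbols stored as dates were restored for 27 of 33233 genes.

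Groups and replicate numbers came from the labels. Counts were filtered with filterByExpr, which left 16532 genes, scaled by TMM and fitted in edgeR 4.0.16 (R 4.3.3) with a robust quasi-likelihood model over all 9 libraries, so wild type helped to estimate the spread (6 residual degrees of freedom). The knockout contrast was tested gene by gene with Benjamini-Hochberg adjustment over all genes at 0.05. A standard error is the log2 fold change divided by the square root of F. Libraries held 10309196 to 20129490 counts and had no molecular identifiers. No replicate pair was a copy. The chi-square per degree of freedom was 3.18 to 6.48 over wild-type pairs. It was 9.37 to 11.7 over CBFA2T2 knockout pairs and 15.5 to 20.1 over PRDM14-labelled pairs. Wild type thus varied least, and the spread shared by the 3 groups may be too small for the knockouts. Same-numbered replicates of the 2 knockouts had deviations correlated at 0.0607, 0.296 and 0.131. The value set as needed for a block was 0.1, which replicate 1 did not reach and replicates 2 and 3 did. The main fit was left without a block, and a fit with the replicate block gave 392 calls. An effect shared by replicate number was not tested. On simulated counts for this contrast (16340 genes), 89% of 100 genes changed by log2 1 and 48% of 100 changed by 0.5 were recovered, and 12 unchanged genes were called. The simulation gave all groups the same spread per gene, drew libraries independently and changed only genes with a mean of at least 5 CPM. The real groups differed in spread, so these rates may not hold for the data.

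Named genes were Cbfa2t2 and Prdm14, the 12 largest called changes in each direction with a mean of at least 5 CPM, a gene symbol and no overlap between the knockouts, up to 3 called members of each list or else the member with the lowest p, and Pou5f1, Sox2, Nanog, Klf4, Dnmt3b, Krt8 and Tagln. Further called or defining list members are named to show what a count holds. For 2 lists the member with the lowest p is not reported here. The members, the 31 lists and the rules were chosen with earlier results of these data known. Promoters, 250 bases before each start, are from RefSeq (GRCm38.p6). Alternatives were RLE size factors, other filters, DESeq2 1.42.0, limma-voom (limma 3.58.1), the 6 knockout libraries alone, a replicate block, a fold threshold, and leaving out chromosome 6, pseudogenes or each library.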

Additional observations from a re-analysis of the deposited data

How the results depend on the processing

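All 141 called genes kept their direction in every alternative in which they were tested. As the knockouts did not overlap in any of the 141, these alternatives could hardly turn a sign, so this says little. Rasgrp3, Donson and Nr0b1 kept their call in all of them and Lzts1 in all that tested it, and Pfkp, Pgam1, Fgf4 and Nr5a2 in all but the fold threshold. Counts below are all calls, then higher, lower and gene list members, against 141, 56, 85 and 21. They came to 328, 129, 199 and 41 with no filter on low counts, 602, 262, 340 and 65 with DESeq2, 24, 14, 10 and 8 with the 6 knockout libraries alone, and 39, 22, 17 and 2 at a log2 change of at least 1. The replicate block gave 392, 180, 212 and 48. limma-voom gave 86 higher. Leaving out 1 library gave 24 to 597 calls, 9 to 325 higher, 15 to 272 lower and 8 to 66 list members. Without a wild-type library the calls were 45 to 77. Of settings chosen after seeing the data, leaving out pseudogenes gave 52 lower, and leaving out chromosome 6 with PRDM14-labelled replicate 1 gave 137 lower. RLE size factors, a mean of at least 5 CPM and leaving out chromosome 6 moved no count by over 1.5 times, and the chromosome 6 median was 0.448 and 0.468 under the first 2. Dnmt3b, not called, lay between -0.17 and 0.021 with 1 library left out. It was above 0 without PRDM14-labelled replicate 1 (0.021), also with chromosome 6 left out (0.021). The cause of these moves was not tested, except that a fold threshold and fewer genes or libraries change what can be called by construction. Depth limits the genes near 1 CPM, which rest on 12.6 to 20.1 counts per knockout library.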

Other observations

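Some of the largest called changes were in genes with a mean under 5 CPM, named here after their values were seen. Scube1, which encodes a secreted and cell-surface protein, was at 6.22, 6.66 and 8.07 CPM in the CBFA2T2 knockout, against 1.52, 1.15 and 0.875 CPM in the PRDM14-labelled libraries and 0.40 to 0.69 CPM in wild type (log2 fold change 2.55 ± 0.29, adjusted p = 0.00113 by edgeR). Rin3, an exchange factor for Rab5 GTPases, was at 6.72, 8.39 and 9.39 CPM in the CBFA2T2 knockout and at 2.33, 1.94 and 0.875 CPM in the PRDM14-labelled libraries (2.24 ± 0.31, adjusted p = 0.00631). Neither pair of groups overlapped. Slc24a4, a potassium-dependent sodium-calcium exchanger, was at 0.961, 1.15 and 2.10 CPM in the CBFA2T2 knockout, against 0, 0.0607 and 0 CPM in the PRDM14-labelled libraries and 0 in all wild-type libraries, so no fold is given. Khdc3, or Filia, a protein of oocytes and embryonic stem cells, was at 1.19, 1.39 and 1.71 CPM in the CBFA2T2 knockout and at 6.76, 2.49 and 4.63 CPM in the PRDM14-labelled libraries (-1.71 ± 0.33, adjusted p = 0.0319), with 12.1 to 15.4 CPM in wild type.

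Genes of the Y chromosome varied most within the PRDM14-labelled group. Of 8 tested 0 were called by edgeR or DESeq2, and 0 had an unadjusted p under 0.05. Zfy1 was at 10.7, 15.6 and 11.3 CPM in the CBFA2T2 knockout. In the PRDM14-labelled group it was at 0.991 CPM in replicate 1, 9.23 CPM in replicate 2 and 42.9 CPM in replicate 3. Wild type was at 0.40 to 2.40 CPM, so PRDM14-labelled replicate 1 lay in the wild-type range. Eif2s3y was also low in that library, at 66.8 CPM against 106 to 129 CPM in the CBFA2T2 knockout. Ddx3y was not, at 113 CPM against 105 to 122 CPM. Over the 8 genes the median log2 ratio to the other knockout libraries was -1.45 in PRDM14-labelled replicate 1, the library that stood apart on chromosome 6, and 1.73 in PRDM14-labelled replicate 3. In the other 4 knockout libraries it lay between -0.133 and 0.0953.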
